A study of Bos taurus with 29 samples.

Results

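Transcripts of 8 matrix proteoglycans that stromal fibroblasts are known for were looked up by name in RNA sequencing counts of bovine corpus luteum: lumican (LUM), decorin (DCN), biglycan (BGN), versican (VCAN), fibromodulin (FMOD), osteoglycin (OGN), asporin (ASPN) and PRELP. The gene table used here has 19112 rows, and 6 of the 8 names have one. OGN and ASPN have no row in it and were not analysed here. The genes were looked up by name, and each of the 6 passed the filter on low counts that left 18939 genes for testing.

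These proteins are secreted into the extracellular matrix, where a protein core carries sugar chains. DCN, BGN, LUM, FMOD and PRELP are small leucine-rich proteoglycans, which bind collagen and set how fibrils assemble, and DCN and BGN also bind growth factors of the TGF-beta family. VCAN is a large aggregating proteoglycan that binds hyaluronan and is abundant in loose, provisional matrix. The corpus luteum forms from the ovulated follicle, is invaded by vessels and fibroblasts as it develops, and secretes progesterone.

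The study concerned exchange of signals between embryo, endometrium and corpus luteum in Bos taurus. The 12 corpus luteum libraries form 4 groups of 3. The NC group, whose samples are also labelled DMEN, was taken as the control. CM_EE carries the label of endometrial explants alone, CM_EE_AI that of explants with an embryo made in vivo, and CM_EE_IVF that of explants with an embryo made in vitro. CM was read as conditioned medium, a reading that the labels leave unstated. The labels give a slaughterhouse source and do not give the age, breed or luteal stage of the animals, nor the dose or duration of exposure. Every group has a library numbered R2, a library numbered R4 and a library numbered R5. What the numbers mark, and whether replicates came from separate animals, is not in the labels, so p-values measure only the spread between these samples. Each R4 and R5 library has a pair of sample titles in the labels, while each R2 library has 1, which is of another form. The labels do not say what this marks, so a difference between R2 and the rest cannot be told apart from it.

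The libraries held between 16536797 and 25747637 counts, of which mitochondrial transcripts took 44.4% to 64.0% and ribosomal RNA 13.8% to 20.9%. The 6 proteoglycans together had between 2733 and 9537 counts per library. All 7 luteal steroidogenic markers had a row, and their summed level was between 1311 and 5751 CPM (TMM-normalised counts scaled to a common total). No luteal, fibroblast, smooth muscle, endothelial, macrophage or T cell marker with a row was at 0 in every library. The lowest sum of any gene over the libraries was 36 counts, so this outcome was fixed in advance. It is no check of the tissue or of these cell types. These are bulk samples, so which cells carried a transcript was not measured, and fewer cells of a type and less RNA per cell cannot be told apart. CPM are not corrected for transcript length, so levels are compared within a gene and not between genes.

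Against the control, no proteoglycan passed the test in any group, where 0% of all genes did. Between libraries with different R numbers VCAN, BGN, DCN and FMOD passed, 4 of 6 beside 26.7% of all genes. VCAN, BGN and DCN were highest in R2 and FMOD was lowest in R2. FMOD no longer passed in 8 of the 12 fits that left out 1 library. LUM and PRELP passed neither test.

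DCN, whose single sugar chain and collagen-binding core give it its name as a decorator of fibrils, had 52.9 CPM in R2, 32.4 in R4 and 24.3 in R5 of NC. It had 45.6, 30.0 and 17.7 CPM in R2, R4 and R5 of CM_EE, 48.0, 47.3 and 23.0 CPM in CM_EE_AI, and 68.3, 46.4 and 30.4 CPM in CM_EE_IVF. In each group R2 was highest and R5 lowest, and all 4 groups overlapped. Group means ran from 31.1 CPM ± 14.0 (SD, n = 3) in CM_EE through 36.5 ± 14.7 in NC and 39.4 ± 14.3 in CM_EE_AI to 48.4 ± 19.1 in CM_EE_IVF, and neighbours in this order differed by less than their SD.

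BGN, the closest relative of DCN and the carrier of a pair of sugar chains, had 87.5, 61.1 and 35.5 CPM in R2, R4 and R5 of NC. The same libraries of CM_EE had 97.8, 53.9 and 19.2 CPM, those of CM_EE_AI 103, 53.6 and 26.8 CPM, and those of CM_EE_IVF 102, 68.96 and 30.7 CPM. The order R2 above R4 above R5 held in every group, with no R4 library reaching an R2 library and no R5 library reaching an R4 library. The group means lay close together, at 57.0 CPM ± 39.3 in CM_EE, 61.0 ± 38.5 in CM_EE_AI, 61.3 ± 26.0 in NC and 67.3 ± 35.8 in CM_EE_IVF (SD, n = 3 each).

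LUM, a keratan sulfate proteoglycan that regulates fibril diameter, had 90.9, 47.7 and 78.4 CPM in R2, R4 and R5 of NC and 82.7, 70.2 and 49.8 CPM in CM_EE. It had 75.3, 194 and 62.3 CPM in CM_EE_AI and 130, 161 and 80.5 CPM in CM_EE_IVF. The highest values were those of R4 in CM_EE_AI and CM_EE_IVF, while R4 of NC was the lowest of the 12, so R4 had no fixed place. Group means were 67.6 CPM ± 16.6 in CM_EE, 72.4 ± 22.2 in NC, 110 ± 72.4 in CM_EE_AI and 124 ± 40.7 in CM_EE_IVF, and the groups overlapped.

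FMOD, which competes with LUM for sites on collagen fibrils, had 9.93, 14.7 and 22.8 CPM in R2, R4 and R5 of NC and 13.9, 25.5 and 13.8 CPM in CM_EE. It had 17.6, 33.1 and 21.2 CPM in CM_EE_AI and 12.7, 30.6 and 20.3 CPM in CM_EE_IVF. R4 was above R2 in all 4 groups and R5 above R2 in 3 of them, so that R2, the highest number in DCN and BGN, was low here. Group means ran from 15.8 CPM ± 6.51 in NC through 17.7 ± 6.72 in CM_EE and 21.2 ± 8.98 in CM_EE_IVF to 23.96 ± 8.13 in CM_EE_AI, and neighbours differed by less than their SD.

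PRELP, a relative of FMOD and LUM that binds both collagen and heparan sulfate, was at a low level of 10 to 147 counts per library. It had 0.602, 0.920 and 0.680 CPM in R2, R4 and R5 of NC, 0.498, 0.954 and 1.76 CPM in CM_EE, 1.17, 1.47 and 2.15 CPM in CM_EE_AI, and 1.02, 5.93 and 1.24 CPM in CM_EE_IVF. R4 of CM_EE_IVF stood far above all other libraries. The group means were 0.734 CPM ± 0.166 in NC, 1.07 ± 0.638 in CM_EE, 1.60 ± 0.502 in CM_EE_AI and 2.73 ± 2.78 in CM_EE_IVF, and both embryo groups lay wholly above NC.

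VCAN had 65.8, 18.4 and 13.0 CPM in R2, R4 and R5 of NC and 77.3, 16.7 and 17.7 CPM in CM_EE. It had 71.2, 19.0 and 19.5 CPM in CM_EE_AI and 91.2, 38.5 and 19.1 CPM in CM_EE_IVF. The 4 R2 libraries lay above all 8 others, and R4 and R5 overlapped. Group means were 32.4 CPM ± 29.0 in NC, 36.6 ± 30.0 in CM_EE_AI, 37.3 ± 34.7 in CM_EE and 49.6 ± 37.4 in CM_EE_IVF, and the spread within a group was close to its mean.

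**Figure D1:**
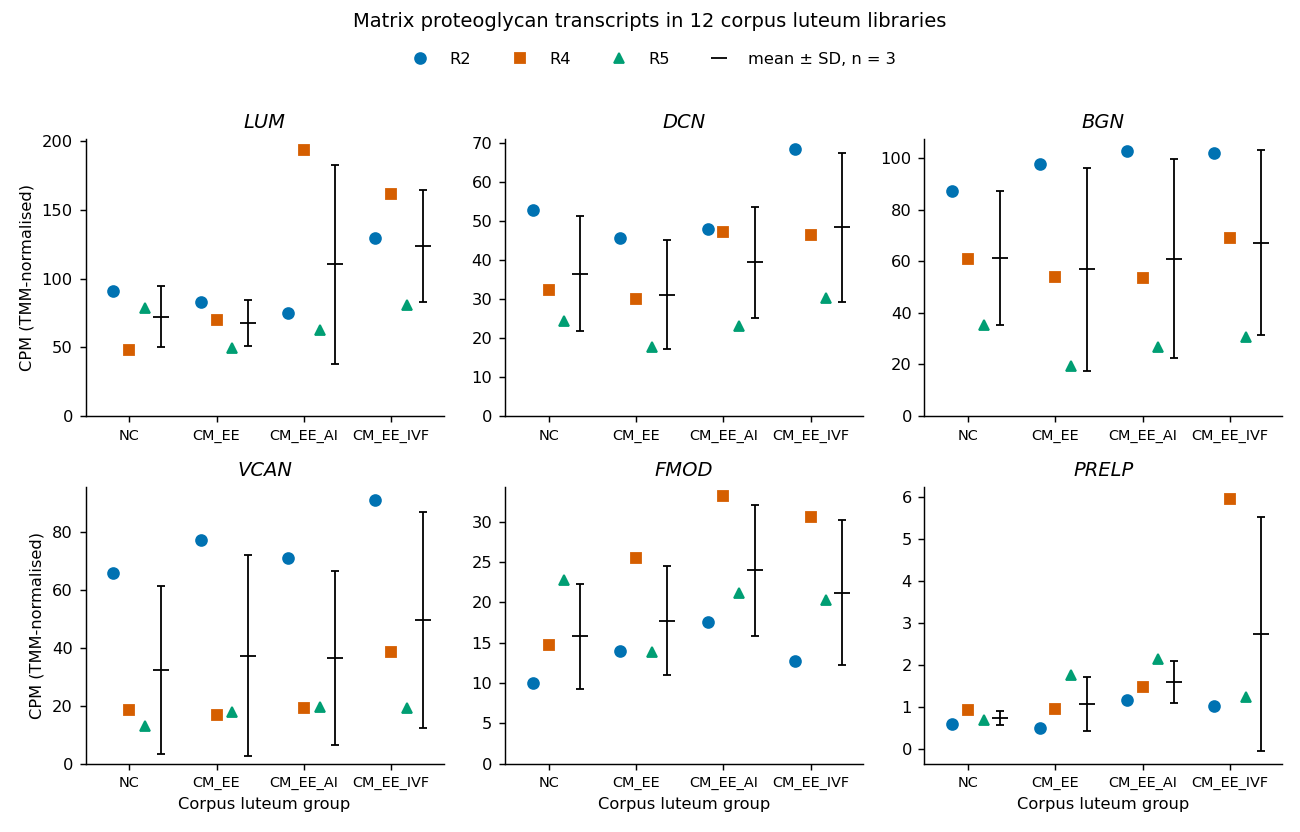
Level of each proteoglycan transcript (y axis, TMM-normalised CPM) in the 12 corpus luteum libraries by group (x axis). Points are libraries, coloured and shaped by R number, and the bar beside them is the mean ± SD of 3. The y axes start at 0 except for PRELP, where the SD of CM_EE_IVF reaches below 0. The R2 points of VCAN and BGN lie above all R4 and R5 points, and 1 PRELP point stands at 5.93 CPM.

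The first question was whether medium from explants, with or without an embryo, went with another level of these transcripts. By the edgeR quasi-likelihood test with Benjamini-Hochberg adjustment over all genes, 0 of the 6 proteoglycans passed an adjusted p of 0.05 in each of the 6 comparisons between groups, where 0% of all genes passed, and 0 passed across the 4 groups together. With DESeq2, 0 genes passed in the 6 comparisons and 1 gene, no proteoglycan, passed across the 4 groups. At an unadjusted p of 0.05, 1 of the 6 passed in CM_EE_IVF against NC, where 281 genes (1.48%) did. In the other comparisons 0 of 6 did so, beside 0.75% of genes in CM_EE against NC, 1.12% in CM_EE_AI against NC, 1.28% in CM_EE_AI against CM_EE, 1.5% in CM_EE_IVF against CM_EE and 0.671% in CM_EE_IVF against CM_EE_AI. Across the 4 groups 0 of 6 and 0.908% of genes passed unadjusted.

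That gene was PRELP, whose log2 fold change in CM_EE_IVF against NC was 1.89 (95% interval 0.33 to 3.45, unadjusted p = 0.0217, adjusted p = 1.0 by edgeR with Benjamini-Hochberg). Without R4 of CM_EE_IVF the log2 fold change was 0.62. In CM_EE_AI against NC the log2 fold change of PRELP was 1.11 (−0.44 to 2.66). Every PRELP library of CM_EE_AI and of CM_EE_IVF was above every NC library, 1 of 6 proteoglycans each time, beside 1.99% and 2.41% of all genes. In the other comparisons 0 of 6 had a first group wholly above the second, beside 1.09% of genes in CM_EE against NC, 1.94% in CM_EE_AI against CM_EE, 3.17% in CM_EE_IVF against CM_EE and 0.755% in CM_EE_IVF against CM_EE_AI.

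The other log2 fold changes of CM_EE_IVF against NC were 0.78 for LUM (−0.19 to 1.74), 0.62 for VCAN (−1.15 to 2.38), 0.42 for FMOD (−0.48 to 1.33), 0.41 for DCN (−0.55 to 1.36) and 0.13 for BGN (−1.22 to 1.48). All 6 values were above 0 and their median was 0.52, beside −0.04 over all genes tested, of which 45.9% were above 0. Leaving out 1 library moved this median between 0.35 (without R4 of NC) and 0.91 (without R2 of NC). In CM_EE_AI against NC, LUM had 0.61 (−0.35 to 1.57) and FMOD 0.60 (−0.30 to 1.5), and the median of the 6 was 0.39 beside 0.03 over all genes, with 0.19 without R4 of CM_EE_AI and 0.67 without R2 of NC. LUM had −0.072 without R4 of CM_EE_AI. In CM_EE against NC, 3 of 6 values were above 0, with a median of 0.03 beside −0.03 over all genes, and the median was −0.51 without R2 of CM_EE and 0.22 without R2 of NC. These 3 comparisons share the NC libraries.

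**Figure D2:**
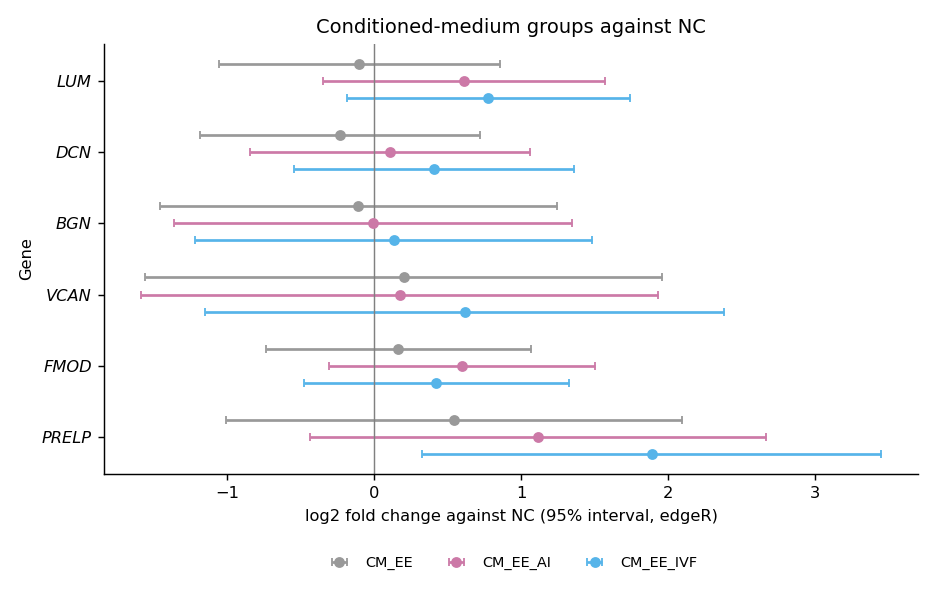
Log2 fold change against NC (x axis) of each proteoglycan (y axis) in the 3 conditioned-medium groups, as points with 95% intervals of the edgeR fit over 12 libraries. In this fit, which has no term for the R number, the interval of PRELP in CM_EE_IVF, around 1.89, lies above 0 with an adjusted p of 1.0. All others cross 0.

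Between the conditioned-medium groups, CM_EE_IVF against CM_EE gave log2 fold changes of 0.87 for LUM (−0.09 to 1.84), 0.64 for DCN (−0.32 to 1.59) and 1.34 for PRELP (−0.18 to 2.87). Without R4 of CM_EE_IVF PRELP had 0.076. The median of the 6 was 0.53, with 6 of 6 above 0, beside −0.02 over all genes, and it was 0.22 without R5 of CM_EE and 1.03 without R2 of CM_EE. CM_EE_AI against CM_EE gave a median of 0.39 beside 0.06, with 0.17 without R5 and 0.78 without R2 of CM_EE. There LUM had 0.71 (−0.25 to 1.67), and 0.024 without R4 of CM_EE_AI. The embryo sources themselves, CM_EE_IVF against CM_EE_AI, gave a median of 0.23 beside −0.07, which was −0.048 without R5 and 0.58 without R2 of CM_EE_AI. It gave 0.30 for DCN (−0.66 to 1.25) and −0.18 for FMOD (−1.08 to 0.72). Each of the intervals given for these 3 comparisons comes from the fit without the R number and includes 0. With the R number as a block, LUM, DCN and VCAN passed an unadjusted edgeR p of 0.05 in CM_EE_IVF against CM_EE. That is 3 of 6, beside 976 of the 18939 genes tested. In CM_EE_AI against CM_EE 0 of 6 did, beside 865 genes, and in CM_EE_IVF against CM_EE_AI 0 of 6, beside 163 genes. After adjustment 0 genes passed in these 3 comparisons.

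Within the R numbers, LUM, DCN, VCAN and PRELP were higher in CM_EE_IVF than in NC in R2, R4 and R5 alike, 4 of 6 beside 12.7% of all genes. LUM, DCN, BGN and VCAN were higher in CM_EE_IVF than in CM_EE in all 3 numbers, 4 of 6 beside 17.8% of all genes. In CM_EE_AI against NC this held for VCAN and PRELP (2 of 6, 13.4% of all genes), and in CM_EE_AI against CM_EE for DCN, FMOD and PRELP (3 of 6, 14.4%). It held for 0 of 6 in CM_EE against NC (5.82% of genes) and in CM_EE_IVF against CM_EE_AI (5.91%). These are counts of direction with no test.

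Beside these values stand those of the cell type markers in CM_EE_IVF against NC, whose part in the values of the proteoglycans was not tested. The median log2 fold change was 0.61 over 10 fibroblast markers, 0.62 over 9 smooth muscle and pericyte markers and 0.67 over 7 luteal markers. It was 0.39 over 6 macrophage markers, −0.25 over 7 endothelial markers and −0.18 over 4 T cell markers. In each of these lists 0 genes passed the adjusted test. The summed level of the fibroblast markers was 246 to 622 CPM in NC, 318 to 602 in CM_EE, 396 to 726 in CM_EE_AI and 364 to 908 in CM_EE_IVF. In CM_EE_IVF against NC, 7 of the 10 fibroblast markers were above 0. COL1A1 is the main chain of the collagen that these proteoglycans decorate. Among the fibroblast markers it had the lowest unadjusted p across the groups, 0.128 by edgeR (adjusted p = 1.0). Its mean was 118 CPM ± 61.9 in NC and 141 ± 40.0 in CM_EE (SD, n = 3 each). In CM_EE_AI it was 173 ± 75.8 and in CM_EE_IVF 266 ± 132. TCF21 went the other way, with 5.61 CPM ± 2.71 in NC and 4.77 ± 1.83 in CM_EE_IVF.

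The second question was how the transcripts varied between libraries of different R numbers, given the group. Each R number has 4 libraries, 1 from each group, and whether they are independent samples is not in the labels. The p-values and intervals between R numbers therefore measure only the spread between these libraries. By the edgeR quasi-likelihood F test with Benjamini-Hochberg adjustment, 4 of the 6 passed, among 5063 genes (26.7%) of all those tested. Without R5 of CM_EE_AI the count over all genes was 3374. The adjusted p was 2.12e-05 for VCAN, 7.29e-05 for BGN, 0.000554 for DCN and 0.0296 for FMOD, against 0.253 for LUM and 0.232 for PRELP. Over the fits that left out 1 library, VCAN, BGN and DCN passed each time.

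VCAN had 76.4 CPM ± 10.98 in R2, 23.2 ± 10.3 in R4 and 17.3 ± 2.96 in R5 (SD, n = 4 each). It was 3.43-fold lower in R4 than in R2 (log2 −1.78, 95% interval −2.20 to −1.36) and 4.41-fold lower in R5 than in R2 (log2 −2.14, −2.56 to −1.71). R5 and R4 differed by −0.36 on the log2 scale (−0.78 to 0.05). VCAN separated R2 from both other numbers.

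BGN had 97.5 CPM ± 7.07 in R2, 59.4 ± 7.27 in R4 and 28.03 ± 6.85 in R5 (SD, n = 4 each). Its log2 fold change was −0.73 in R4 against R2 (−1.10 to −0.36), −1.83 in R5 against R2 (−2.21 to −1.45) and −1.10 in R5 against R4 (−1.47 to −0.72). BGN stepped down from R2 to R4 and again to R5. Every R2 library of VCAN and BGN was above every R4 and R5 library, 2 of 6 beside 4.78% of all genes, and the full order with no overlap held for BGN, 1 of 6 beside 1.07%.

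DCN had 53.7 CPM ± 10.2 in R2, 39.0 ± 9.11 in R4 and 23.8 ± 5.18 in R5 (SD, n = 4 each). The log2 fold changes were −0.47 in R4 against R2 (−0.80 to −0.14), −1.18 in R5 against R2 (−1.52 to −0.85) and −0.71 in R5 against R4 (−1.05 to −0.38). DCN moved in the same order as BGN, with neighbouring numbers overlapping.

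FMOD had 13.5 CPM ± 3.17 in R2, 26.0 ± 8.17 in R4 and 19.5 ± 3.95 in R5 (SD, n = 4 each), and its log2 fold change was 0.92 in R4 against R2 (0.42 to 1.43) and 0.56 in R5 against R2 (0.05 to 1.07). Without R5 of NC the latter was 0.10. Its call rested on single libraries. The edgeR adjusted p was 0.106 without R2 of NC, 0.0705 without R2 and 0.103 without R4 of CM_EE, 0.0753 without R2 and 0.0705 without R4 of CM_EE_AI, and 0.0922, 0.0827 and 0.0527 without R2, R4 and R5 of CM_EE_IVF.

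LUM, with 94.6 CPM ± 24.2 in R2, 118 ± 70.3 in R4 and 67.8 ± 14.5 in R5, did not pass, but had an edgeR adjusted p of 0.0274 without R4 of NC. PRELP had 0.821 CPM ± 0.322 in R2, 2.32 ± 2.42 in R4 and 1.46 ± 0.637 in R5, and the log2 fold change of R4 against R2 was 1.23 (0.03 to 2.43) with all libraries and 0.51 without R4 of CM_EE_IVF.

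With the 4 R2 libraries left out, R5 against R4 could be tested over the remaining 8. There 2 of the 6 passed, beside 15.6% of 18670 genes. DCN had a log2 fold change of −0.73 (−1.11 to −0.36, edgeR adjusted p = 0.0162) and BGN of −1.14 (−1.50 to −0.77, edgeR adjusted p = 0.00185). VCAN had −0.38 with an adjusted p of 0.277 and FMOD −0.41 with 0.278. This fit was chosen after the data were seen.

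**Figure D3:**
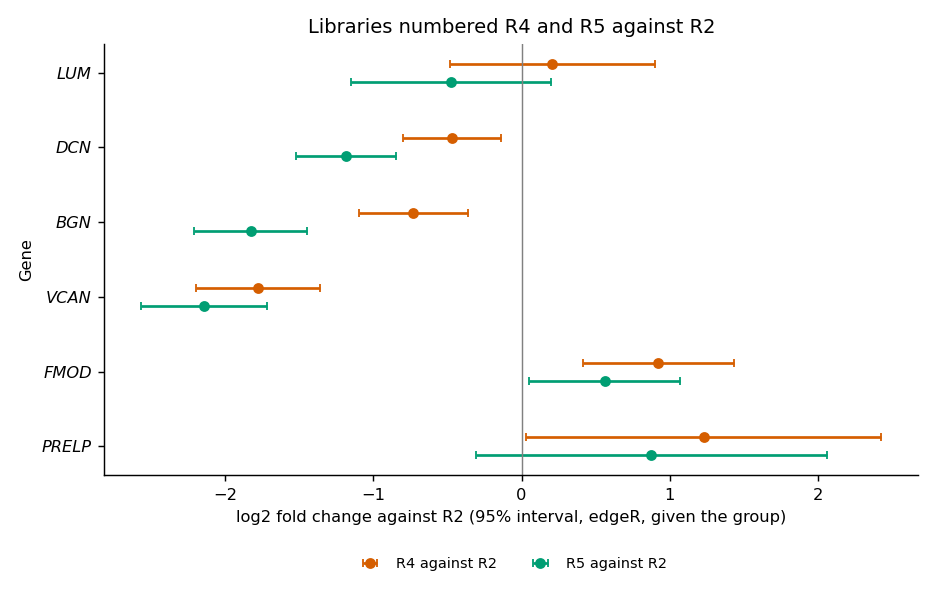
Log2 fold change of R4 and of R5 against R2 (x axis) for each proteoglycan (y axis), given the group, with 95% intervals of the edgeR fit over 12 libraries. VCAN, BGN and DCN lie below 0, FMOD above it, and both LUM intervals cross 0.

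As shares of the variance of log2 CPM between the 12 libraries, the R number accounted for 92.5% in BGN, 89.4% in VCAN, 76.7% in DCN, 52.4% in FMOD, 25.4% in PRELP and 19.1% in LUM, beside a median of 40.1% over all genes tested. The group accounted for 38.1% in PRELP, 34.0% in LUM, 21.4% in FMOD, 18.4% in DCN, 6.63% in VCAN and 3.13% in BGN, beside a median of 13.6%. LUM and PRELP were therefore the genes of the 6 with a larger share for the group than for the R number. The group has 4 levels and the R number 3, so noise alone gives the group the larger share on average. Across the groups the unadjusted p by edgeR was 0.175 for LUM and 0.0898 for PRELP. After both, 47.0% remained in LUM and 36.5% in PRELP, and 4.90% in DCN, 4.33% in BGN and 3.94% in VCAN.

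**Figure D4:**
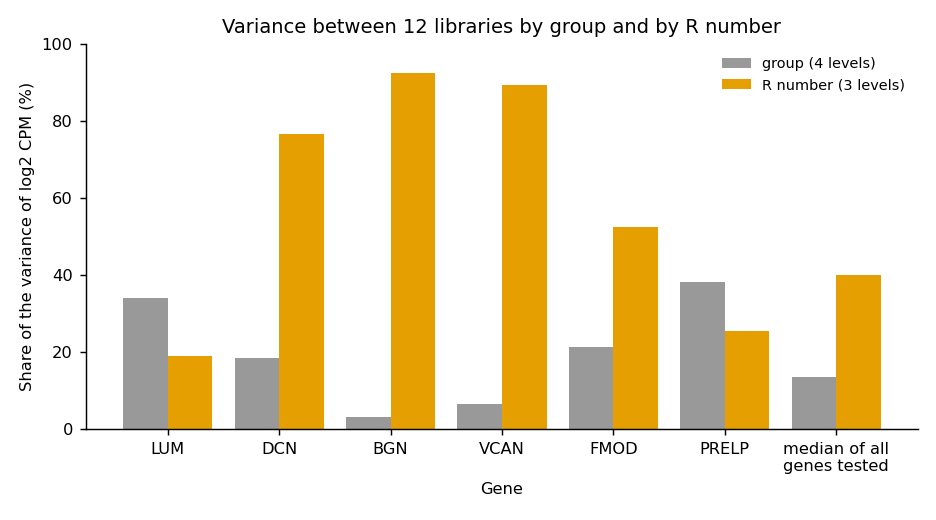
Share of the variance of log2 CPM over 12 libraries (y axis, percent, bars from 0) that lies between the 4 groups and between the 3 R numbers, for each proteoglycan and as the median over all genes tested (x axis). The R number bar reaches 92.5% in BGN and 19.1% in LUM.

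The mitochondrial share of counts also went with the R number, at 49.5% to 55.9% in R2, 44.4% to 48.9% in R4 and 54.8% to 64.0% in R5. Of 10 fibroblast markers, 5 (50%) passed between R numbers, beside 26.7% of all genes. All 5 were highest in R2, namely the collagens COL1A1, COL1A2 and COL3A1 with PDGFRA and TCF21. COL3A1 had a log2 fold change of −1.48 in R5 against R2 (edgeR adjusted p = 0.00181) and TCF21 of −1.26 (0.0246). The summed fibroblast level was 602 to 908 CPM in R2, 246 to 863 in R4 and 298 to 396 in R5. The number that passed was 3 without R4 of CM_EE, R2 or R5 of CM_EE_AI, or R2 or R5 of CM_EE_IVF, each left out on its own. In R5 against R4 without the R2 libraries 0 passed, beside 15.6% of all genes.

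The markers of other cell types are given beside the 26.7% of all genes that passed between R numbers. Among 7 endothelial markers 5 passed, 4 of them highest in R2, and the summed level was 1232 to 1524 CPM in R2, 747 to 1093 in R4 and 792 to 1110 in R5. CDH5, the cadherin of endothelial junctions, had a log2 fold change of −1.66 in R4 against R2 (edgeR adjusted p = 2.56e-05). TEK, the 1 that was lowest in R2, had 30.5 CPM in R2, 44.3 in R4 and 61.4 in R5 (edgeR adjusted p = 0.00163). Among 9 smooth muscle and pericyte markers 7 passed, with 4 passing without R5 of CM_EE_AI, and among 7 luteal markers 6 passed. Of the 6, 0 were highest and 2 lowest in R2. LHCGR, the receptor for luteinizing hormone, had 69.02 CPM in R2, 125 in R4 and 226 in R5, and so was highest in R5. STAR, which carries cholesterol into mitochondria, was highest in R4, with 547 CPM against 179 in R2 and 156 in R5. The summed luteal level was 1311 to 2274 CPM in R2, 1571 to 5751 in R4 and 1330 to 2013 in R5. Among 6 macrophage markers 1 passed, and 0 did without R2 of CM_EE, and among 4 T cell markers 0 passed. In R5 against R4 without the R2 libraries, 1 endothelial, 4 smooth muscle and pericyte and 5 luteal markers passed, beside 15.6% of all genes. The part of these markers in the differences of the proteoglycans was not tested.

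Of the wider small leucine-rich family, EPYC, NYX, CHADL, PODN, PODNL1 and TSKU had a row, and 0 of these 6 passed between R numbers. TSKU had between 2.68 and 9.26 CPM, and PODN, CHADL, NYX and EPYC had at most 3.20 CPM in any library. PODNL1 had at most 0.954 CPM. Of the hyaluronan system, to which VCAN binds, 7 of 20 genes (35%) passed, beside 26.7% of all genes, with 3 highest and 2 lowest in R2. CEMIP, which takes part in hyaluronan breakdown, had 164 CPM ± 72.4 in R2, 16.8 ± 3.61 in R4 and 32.6 ± 3.62 in R5 (edgeR adjusted p = 6.03e-06). CD44, the hyaluronan receptor, had a log2 fold change of −1.14 in R5 against R2 (edgeR adjusted p = 0.0022). HMMR, another hyaluronan receptor, was highest in R5, at 8.20 CPM against 3.37 in R2 and 4.75 in R4 (edgeR adjusted p = 0.00596).

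Of 30 genes of sugar chain synthesis 13 (43.3%) passed between R numbers, beside 26.7% of all genes, 4 of them highest and 5 lowest in R2. XYLT1, which adds the first xylose of a chain to the core protein, had 417 CPM in R2, 159 in R4 and 96.9 in R5 (edgeR adjusted p = 8.84e-05). CSGALNACT1 and CHSY1, which start and extend chondroitin sulfate, had log2 fold changes of −1.19 and −1.48 in R5 against R2. Of 13 proteases that cleave proteoglycans 9 (69.2%) passed, 4 of them highest and 1 lowest in R2. ADAMTS5, which cuts versican and aggrecan, had 28.6 CPM in R2, 9.73 in R4 and 3.35 in R5 (edgeR adjusted p = 4.57e-05), and ADAMTS4 had 79.0, 87.6 and 16.02 CPM (6.59e-05). TLL1, a protease of the tolloid family, was highest in R5, at 34.0 CPM against 22.1 in R2 and 11.7 in R4 (edgeR adjusted p = 0.000955).

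Of 15 fibrillar matrix partners 11 (73.3%) passed, 8 of them highest and 2 lowest in R2, and 3 collagens of this list also stand among the fibroblast markers. COL6A1 and COL5A3 had log2 fold changes of −1.46 and −1.56 in R4 against R2, and of −0.08 and −1.31 in R5 against R2. FN1, fibronectin, had −1.23 in R5 against R2 but was highest in R4, at 197 CPM against 167 in R2. Of 17 cell surface and basement membrane proteoglycans 8 (47.1%) passed, 1 highest and 4 lowest in R2. SDC4, a syndecan of adhesion sites, had 94.0 CPM in R2, 283 in R4 and 42.8 in R5, and the glypican GPC5 had 55.5, 226 and 156 CPM. Of 18 receptors and ligands 7 (38.9%) passed, 0 of them highest in R2 and 3 lowest. LRP1, an endocytic receptor for DCN, had 78.1 CPM in R2, 136 in R4 and 199 in R5 (edgeR adjusted p = 0.000775). Without the R2 libraries, R5 against R4 left 3 fibrillar partners, 4 genes of the hyaluronan system, 5 cell surface and basement membrane proteoglycans, 8 genes of chain synthesis, 8 proteases and 6 receptors and ligands past the test. In that fit 15.6% of all genes passed. Across the 4 groups 0 genes of these lists passed the adjusted test.

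How the proteoglycans varied together was examined over the 12 libraries on log2 CPM. BGN and VCAN fall into separate sets by R number, so no pooled correlation with another proteoglycan is given for them. Of the remaining 6 pairs, 0 passed an adjusted permutation p of 0.05. The adjustment ran over all 15 pairs, so the adjusted values also depend on the pairs with BGN or VCAN that are not given. The closest was LUM with DCN, at Pearson r = 0.681 (permutation p = 0.0152, adjusted 0.0571) and Spearman rho = 0.678 (permutation p = 0.0188, adjusted 0.0704), with r = 0.764 over the 10 libraries left without those farthest from the median of LUM. With the mean of each R number removed, LUM and DCN had r = 0.849 (permutation p = 0.00287, adjusted 0.043 over 15 pairs). All 15 pairs had r above 0, and LUM with DCN was the 1 that passed. The highest r was 0.886 for VCAN with PRELP (permutation p = 0.0171, adjusted 0.128), and the lowest 0.020 for BGN with PRELP. Among the R4 libraries, that of CM_EE_IVF had the highest level of both VCAN and PRELP. The 15 pairs share 6 genes, the scaling and the differences between groups, and the share above 0 over all genes was not computed. LUM and DCN are next to each other in the RefSeq annotation of ARS-UCD2.0, with no coding gene between them, and so are FMOD and PRELP, which had r = 0.325 with the R mean removed (permutation p = 0.446, adjusted 0.606).

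The genes most like each proteoglycan were searched among 14549 genes by Pearson r of log2 CPM over the 12 libraries, which share their scaling and R numbers, as a description. In BGN, VCAN and DCN most of the variance lies between the R numbers, so there r ranks genes largely by that difference. DCN was closest to OLFML1 (r = 0.961), to SPARC (0.947), a collagen-binding matrix protein, and to MFSD4A (0.942). VCAN was closest to CTHRC1 (0.958), a secreted protein with a collagen repeat, to ABHD17C (0.954) and to ADAM19 (0.953). CTHRC1 had 13.8 CPM in R2, 1.80 in R4 and 0.919 in R5, the same order of numbers as VCAN. BGN was closest to PTPN2 (0.968), ENO1 (0.963), a glycolytic enzyme, and SERINC3 (0.961). LUM was closest to NAXE (0.957), MTHFS (0.949) and the secreted protease HTRA1 (0.945). FMOD was closest to TKT, GLB1 and BCL2L2 (0.937 each), and PRELP to SRC (0.939), KCNK12 (0.917) and IL17B (0.906).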

How the data were processed

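RNA of bovine corpus luteum was sequenced, and per the labels total RNA was taken with a column kit and treated with DNase. The authors deposited whole read counts per gene. None of the 12 deposited columns held fractional expected counts, so rounding changed nothing. The submitters' processing notes list featureCounts, STAR, cutadapt, Trim Galore and DESeq2. Build, annotation, corpus luteum library kit and the joining of paired titles were not given in the sources used here. Labels list 20 corpus luteum samples, with a pair of titles per group for R4 and R5, and the table has 12 columns, each used as 1 library. Endometrial samples were not used, since no table used here pairs their gene IDs with symbols.

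Genes were kept with filterByExpr by group at a minimum count of 10 (18939 of 19112, the lowest gene sum being 36), and scaled by TMM. All 12 libraries entered 1 edgeR quasi-likelihood fit on group. The test between R numbers added the R number. P-values were adjusted by Benjamini-Hochberg over all genes at 0.05. Log2 CPM used a prior count of 2, and permutation tests of correlations were two-sided with 100000 resamples. Alternatives were DESeq2 size factors, the DESeq2 test, no filter, leaving out mitochondrial and ribosomal RNA genes (37 and 2), the groups compared alone, a replicate block and leaving out each library. The fits were also run on simulated counts with known changes, and the share of changes recovered is not reported here. Of 12 library pairs within a group, 0 were identical.

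The 8 genes and the lists around them were chosen with earlier results of these data known. The text names every proteoglycan of the rule, up to 4 genes of a list with the lowest p between R numbers and up to 2 across groups, all leucine-rich relatives, and the 3 genes most like each proteoglycan. The tools were edgeR 4.0.16, DESeq2 1.42.0 and limma 3.58.1 in R 4.3.3, and matplotlib 3.10.9 and numpy 2.4.6 in Python 3.11.15.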

Additional observations from a re-analysis of the deposited data

Results flagged for a closer look

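Within each R number the 4 libraries of a gene were compared for a highest or lowest value that stands apart from the others (Dixon's criterion), which chance meets in about 1 of 20 sets. It was met in 2 of 18 sets, both times by R4 of CM_EE_IVF. This library had 38.5 CPM of VCAN, where the other R4 libraries had 16.7 to 19.0 CPM, and 5.93 CPM of PRELP, where they had 0.920 to 1.47 CPM.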

How the results depend on the processing

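No proteoglycan passed between groups under any setting run, and of 216 fits of a gene and comparison under other settings 215 kept their direction. VCAN in CM_EE_AI against CM_EE turned from −0.027 to 0.0603 with the replicate block, a term for the R number. The block gave 0 adjusted calls over all genes in the 6 comparisons. Unadjusted, it let DCN, VCAN and PRELP pass in CM_EE_IVF against NC (lowest p 0.00614, adjusted 0.991 by edgeR). In CM_EE_IVF against CM_EE it let LUM, DCN and VCAN pass (0.00273, adjusted 0.957 by edgeR). Of the 18939 genes tested, 817 and 976 passed in these comparisons, beside 281 and 285 without the block. In the other comparisons 0 of 6 proteoglycans passed with the block, beside 163 to 865 genes. Same-numbered libraries had correlated deviations from their group means (r of 0.0813 to 0.662, over 0.1 in 15 of 18 pairs, against −0.490 to 0.198 for different numbers), and 7 of 12 libraries were closest to their own number in every other group. The labels do not pair the numbers, so they were treated as numbers alone.

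Without the R2 libraries, 2 proteoglycans passed between the remaining R numbers, in place of 4, with fewer samples and genes. The number of correlated pairs, adjusted over all 15, was 1 in place of 0 with the R mean removed and 1 with DESeq2 size factors. The cause was not tested. DESeq2 called 6020 genes between R numbers and edgeR 5063.

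Leaving out 1 library unbalances the R numbers between groups, and 13 of 36 log2 fold changes between groups kept their sign each time. The ranges of those that did not were, in CM_EE against NC, −0.33 to 0.13 for LUM, −0.68 to 0.17 for DCN, −0.82 to 0.28 for BGN, −1.01 to 1.29 for VCAN, −0.19 to 0.47 for FMOD and −0.040 to 0.84 for PRELP. In CM_EE_AI against NC they were −0.072 to 0.89 for LUM, −0.17 to 0.51 for DCN, −0.71 to 0.39 for BGN and −0.89 to 1.29 for VCAN, and in CM_EE_IVF against NC −0.30 to 0.52 for BGN and −0.17 to 1.72 for VCAN. In CM_EE_AI against CM_EE they were −0.57 to 0.80 for BGN and −1.04 to 1.15 for VCAN, and in CM_EE_IVF against CM_EE −0.19 to 0.93 for BGN, −0.37 to 1.59 for VCAN and −0.10 to 0.61 for FMOD. In CM_EE_IVF against CM_EE_AI they were −0.12 to 0.85 for LUM, −0.037 to 0.54 for DCN, −0.29 to 0.82 for BGN, −0.34 to 1.47 for VCAN, −0.54 to 0.13 for FMOD and −0.49 to 1.17 for PRELP. Between R numbers, LUM in R4 against R2 ranged from −0.20 to 0.55 and PRELP in R5 against R4 from −0.83 to 0.29. The number of proteoglycans that passed between R numbers was 3 to 5, and that of all genes 3374 to 5141.

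The biological coefficient of variation was 0.519 given the group and 0.389 given the group and the R number. The intervals between groups come from the fit without the R number. PRELP rests on few counts. The endometrial comparison was not run.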
